A study of Mus musculus with 3 samples.

Results

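The proteasome subunit genes of mouse were taken as all protein-coding genes whose symbol begins with Psm, a letter from a to g and a digit. The rule found 50 of the 21897 protein-coding genes of the annotation. Psmc3ip carries such a symbol but encodes a recombination factor that is not a proteasome subunit, which left 49 genes. Of these, 31 encode constitutive subunits of the 20S core and the 19S cap, and 5 were taken as immune subunits. The others encode further activators, an inhibitor, assembly chaperones and a pair of tissue-restricted 20S subunits. All 50 genes had a row in each of the 3 tables.

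The proteasome degrades proteins tagged with ubiquitin. Its 20S core is a barrel of α rings around β rings, the β subunits Psmb5, Psmb6 and Psmb7 carry the proteolytic sites, and the 19S cap has a base of ATPases that unfold the substrate and a lid that removes ubiquitin. Interferon replaces the catalytic subunits with Psmb8, Psmb9 and Psmb10 and raises the activator subunits Psme1 and Psme2, which together make the immunoproteasome known from immune cells. In cardiomyocytes the proteasome turns over sarcomere proteins, and the transcription factor Nfe2l1 (also called Nrf1) is known to raise many subunit genes together when proteasome activity is short.

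Single wells of dissociated adult mouse heart were profiled on the iCELL8 nanowell platform, with 1 library on each of days 1, 2 and 3 of tamoxifen treatment. The genotype labels are INO80_OE on days 1 and 2, and INO80_OE together with Ctrl on day 3. The series title names a Myh6-MCM;Ino80fl/fl heart and its design text speaks of Ino80 induction, so the labels do not settle whether the allele removes or adds Ino80. Myh6-MCM is a tamoxifen-activated Cre driven by a cardiomyocyte promoter. The sources used here give neither the number of animals per library nor their age, and day 0 was not analysed here. No file used here assigns a day 3 well to a genotype label, and the day 3 wells were therefore described only by their own Ino80 level. Ino80 encodes the ATPase of a chromatin remodelling complex.

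The libraries held 1232, 1063 and 1099 wells with 487459959, 452069809 and 484368814 counts. Each day is 1 library, so differences between days have no replicate check, and library and day cannot be told apart. The results below concern the cardiomyocyte compartment, which was defined by exclusion as the wells outside every cluster named for another cell type. It held 575, 634 and 889 wells on days 1, 2 and 3, or 46.9%, 59.9% and 81.4% of the wells kept. The largest class left out, endothelial-like wells, numbered 355, 171 and 4, so the make-up of the compartment may differ between libraries. All 12 ventricular cardiomyocyte markers were above 10 CPM (counts scaled to a total of 1000000) in every group of compartment wells. Presence above that level does not by itself identify cardiomyocytes. On day 1 Myh6, the cardiomyocyte myosin, was at 13784 CPM in compartment wells. It was at 11384, 11168 and 11047 CPM in macrophage-like, fibroblast-like and endothelial-like wells. Of the 889 day 3 wells, 399 had Ino80 at 1000 CPM or more (Ino80-high), 444 were under 100 CPM (Ino80-low) and 46 lay between. The groups compared lay in different clusters. Cluster 2 held 514 of the 575 day 1 wells, cluster 3 held 599 of the 634 day 2 wells, cluster 5 held 435 of the 444 Ino80-low wells and cluster 12 held 396 of the 399 Ino80-high wells. Libraries shared 278, 268 and 247 well barcodes between days 1 and 2, days 1 and 3, and days 2 and 3.

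CPM is given here relative to 1000000 nuclear-encoded counts, summed over the wells of a group. Ratios are log2 values of such sums, and a gene was called measured in a comparison when the mean of both sides was at least 10 CPM. Exact 95% intervals cover counting error only, and wells of 1 library are not replicates. No molecular identifiers are recorded and amplified copies may be counted more than once, so the intervals may be too narrow even for counting error. Whether the chemistry covers whole transcripts is not given in the sources used here, so levels are compared between groups and not between genes.

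Promoter windows of 5 subunit genes are shown because Nfe2l1 and its relative Nfe2l2 bind elements of the antioxidant response type, written here as TGACNNNGC. The genes were chosen after their values and matches were seen. Psmb5 and Psmb6 hold a match, which stands in capitals, Psma5 and Psmc4 had the largest ratios between day 3 well groups, and Psme4 differed in the opposite direction. Each run is the 250 bases before the RefSeq start of the gene, 5′ to 3′ on the gene's strand, in GRCm38.p6.
Psmb5 (chr14:54617996-54618245, minus strand): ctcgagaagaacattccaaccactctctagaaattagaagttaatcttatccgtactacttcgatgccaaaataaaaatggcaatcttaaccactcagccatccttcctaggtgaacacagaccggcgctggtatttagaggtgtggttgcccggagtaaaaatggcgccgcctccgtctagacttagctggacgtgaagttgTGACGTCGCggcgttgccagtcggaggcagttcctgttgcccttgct
Psmb6 (chr11:70525107-70525356, plus strand): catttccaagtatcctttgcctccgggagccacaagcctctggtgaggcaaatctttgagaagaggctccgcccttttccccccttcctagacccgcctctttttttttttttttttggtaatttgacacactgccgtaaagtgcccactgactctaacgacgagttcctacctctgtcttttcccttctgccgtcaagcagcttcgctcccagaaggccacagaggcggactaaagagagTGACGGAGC
Psma5 (chr3:108256676-108256925, plus strand): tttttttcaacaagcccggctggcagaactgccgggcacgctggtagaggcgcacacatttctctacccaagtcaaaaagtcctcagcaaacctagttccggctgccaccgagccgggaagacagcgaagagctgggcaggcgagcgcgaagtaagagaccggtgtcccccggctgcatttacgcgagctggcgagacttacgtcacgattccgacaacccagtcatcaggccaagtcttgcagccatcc
Psmc4 (chr7:28050093-28050342, minus strand): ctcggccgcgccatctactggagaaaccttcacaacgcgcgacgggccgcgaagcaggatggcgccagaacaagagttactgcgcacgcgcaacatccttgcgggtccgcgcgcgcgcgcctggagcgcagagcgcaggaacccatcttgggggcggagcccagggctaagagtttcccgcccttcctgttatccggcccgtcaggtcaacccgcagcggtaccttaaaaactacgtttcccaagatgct
Psme4 (chr11:30771525-30771774, plus strand): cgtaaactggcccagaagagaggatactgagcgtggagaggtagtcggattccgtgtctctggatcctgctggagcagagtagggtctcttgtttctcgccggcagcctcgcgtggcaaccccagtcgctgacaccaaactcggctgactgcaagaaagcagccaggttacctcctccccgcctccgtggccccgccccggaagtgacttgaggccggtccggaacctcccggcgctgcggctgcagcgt
RefSeq windows were matched for 42 of the 50 genes. On either strand, TGACNNNGC was found in 4 of 25 constitutive subunit genes with a window (16%), against 11.5% of all genes with one. CCAAT was found in 40% of the constitutive genes and in 37.5% of all genes. The core of interferon-stimulated elements, GAAA followed by NN and GAAA, was found in 8% of the constitutive genes, in 3.46% of all genes and in 0 of the 5 immune genes. A match describes letters in this window and is not a bound site.

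The constitutive genes were higher in the Ino80-high than in the Ino80-low wells of day 3 in every ring and in both parts of the cap. Of the 31 constitutive genes, 30 were measured, and all 30 were at least 1.5-fold higher in Ino80-high wells, where 37.5% of all 5991 genes measured were. At least 2-fold, the counts were 29 of 30 constitutive genes and 23.1% of all genes. The median log2 ratio was 1.41 over the constitutive genes, with a range from 0.82 to 2.54, and 0.26 over all genes. Psmb7, at 1.97 against 1.19 CPM, was the gene not measured. Summed over the 31 genes, the level was 16142 CPM in Ino80-high wells and 5618 CPM in Ino80-low wells.

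**Figure D1:**
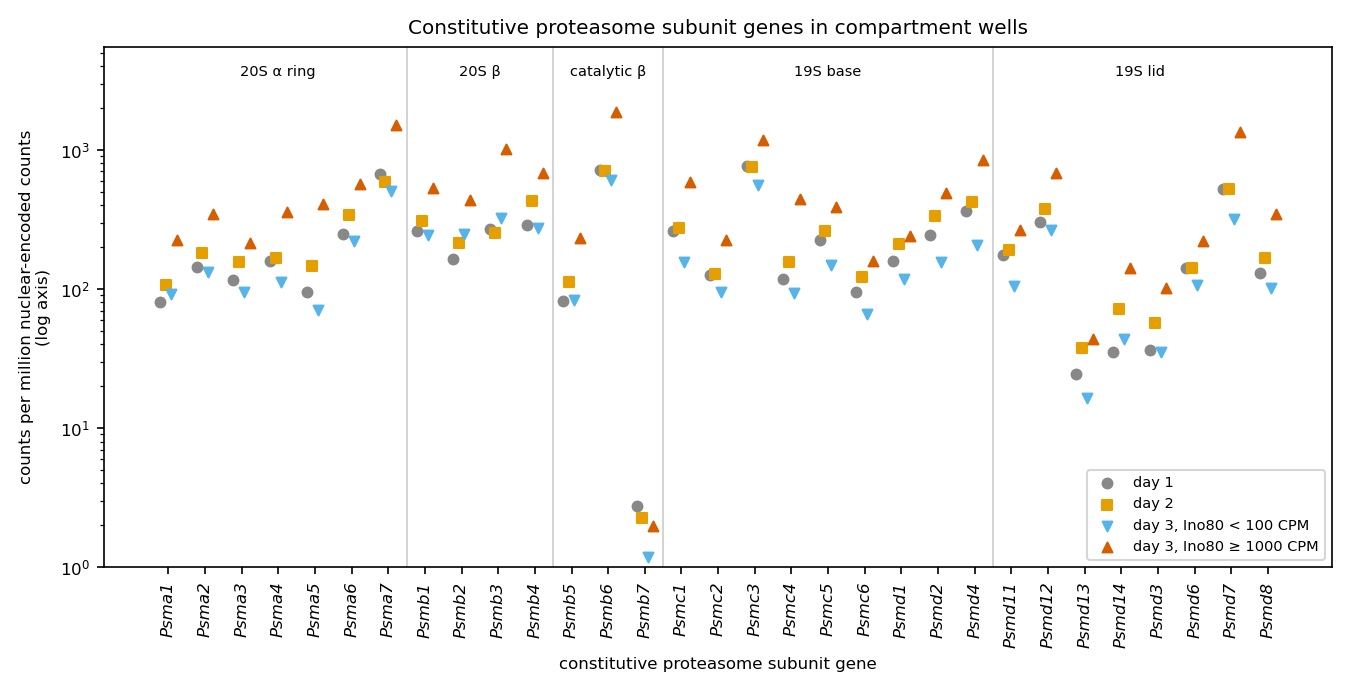
Level of each of the 31 constitutive subunit genes (x axis) in compartment wells, in CPM on a log axis, grouped by place in the proteasome. Each symbol is the sum over the wells of 1 group. Of the 30 genes above 10 CPM, 30 were highest in the Ino80-high wells of day 3 and 25 were lowest in the Ino80-low wells. The shares of all genes with these orders were not computed.

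In the α ring, which gates entry to the core, all 7 genes were at least 2-fold higher in Ino80-high wells. Psma5 stood at 95.3, 146 and 201 CPM on days 1, 2 and 3, and at 407 CPM in Ino80-high and 70.1 CPM in Ino80-low wells. Its log2 ratio of 2.54 (interval 2.51 to 2.57) was the highest of the constitutive genes. It had a count in 99.7% of Ino80-high wells, with a quartile range of 185 to 538 CPM per well, and in 85.1% of Ino80-low wells, with 4.32 to 86.1 CPM. The quartile ranges of the well groups did not overlap. This also held for other constitutive genes, among them Psma7 and Psmd7, whereas those of Psma4 overlapped. Here and below, the share of all genes without such an overlap was not computed. Psma4 was at 159, 167 and 210 CPM on the 3 days, and at 358 against 113 CPM in high and low wells. Psma7 was at 676, 586 and 895 CPM, and at 1501 against 510 CPM. These had the next largest ratios of the ring, 1.66 and 1.56. Psma2 was at 143, 182 and 215 CPM by day, and at 347 against 133 CPM. Psma6 was at 247, 339 and 356 CPM, and at 574 against 220 CPM. Psma1 was at 81.3, 108 and 145 CPM, and at 226 against 92.2 CPM. Psma3 had the smallest ratio of the ring, 1.18. Its levels were 117, 157 and 141 CPM by day, and 216 against 95.4 CPM.

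Among the structural β subunits, Psmb3 was the gene with a lower level on day 2 than on day 1. It was at 272, 254 and 596 CPM on days 1, 2 and 3, and at 1021 CPM in Ino80-high and 324 CPM in Ino80-low wells. Psmb4 was at 290, 427 and 433 CPM, and at 688 against 276 CPM. Psmb1 was at 261, 308 and 355 CPM, and at 529 against 247 CPM. Psmb2 was the constitutive gene that stayed under 2-fold, with a log2 ratio of 0.82 (0.80 to 0.84). Its levels were 166, 213 and 323 CPM by day, and 439 against 249 CPM.

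The constitutive catalytic genes Psmb5 and Psmb6 were both higher in Ino80-high wells. Psmb6, the caspase-like site (mm10 chromosome 11, 70525367 to 70527858), was at 717, 700 and 1106 CPM by day, and at 1883 against 612 CPM in high and low wells, a log2 ratio of 1.62. Its quartile range per well was 1192 to 2363 CPM in Ino80-high and 289 to 828 CPM in Ino80-low wells, with no overlap of the ranges. Psmb5, the chymotrypsin-like site (chromosome 14, 54614119 to 54618022), was at 81.9, 111 and 143 CPM, and at 234 against 83.8 CPM, a log2 ratio of 1.48. Its quartile ranges, 98.0 to 311 CPM and 15.5 to 121 CPM, overlapped. Psmb7, the trypsin-like site (chromosome 2, 38588036 to 38644087), was at 2.76, 2.27 and 1.44 CPM. It had a count in 2.17% to 10.7% of the wells of a group, and its exons share 405 bases with Nek6 on the opposite strand. Strand handling of the counting is not given in the sources used here, so reads in such an overlap cannot be assigned. Exons of further members overlap other genes, among them Psma5 (60 bases), Psmb5 (109 bases), Psmb8 (498 bases) and Psmd9 (1849 bases).

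In the 19S base, which holds the ATPases, all 9 genes were at least 2-fold higher in Ino80-high wells. Psmc4, one of the ATPases, was at 118, 157 and 230 CPM by day, and at 444 against 94.1 CPM, a log2 ratio of 2.24. Its quartile ranges of 188 to 618 CPM and 11.7 to 141 CPM per well did not overlap. Psmd4, a ubiquitin receptor, was at 364, 422 and 449 CPM, and at 844 against 208 CPM, a log2 ratio of 2.02. The ATPase genes differed by unequal amounts. Psmc1 was at 259, 274 and 326 CPM, and at 590 against 156 CPM. Psmc5 was at 225, 260 and 245 CPM, and at 392 against 149 CPM. Psmc6 was at 94.9, 121 and 102 CPM, and at 160 against 66.6 CPM. Psmc2 and Psmc3 had log2 ratios of 0.03 and -0.01 between days 2 and 1. Psmc2 was at 126, 129 and 147 CPM, and at 226 against 95.4 CPM. Psmc3, whose exons overlap Slc39a13, was at 767, 760 and 791 CPM, and at 1174 against 555 CPM. The scaffold subunits completed the base. Psmd2 was at 244, 337 and 291 CPM, and at 494 against 157 CPM. Psmd1 had the smallest ratio of the base, 1.02, with 159, 211 and 167 CPM by day and 239 against 118 CPM in high and low wells.

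All 8 lid genes were at least 2-fold higher as well. Psmd7 was at 525, 526 and 718 CPM by day, and at 1354 against 318 CPM, a log2 ratio of 2.09. Psmd14, the lid's deubiquitinase, was at 34.96, 72.3 and 81.4 CPM, and at 141 against 44.0 CPM. It was the constitutive gene with the largest difference between days 1 and 2. Psmd8 was at 130, 167 and 197 CPM, and at 346 against 102 CPM. Psmd3 was at 36.2, 56.6 and 60.9 CPM, and at 102 against 35.2 CPM. Psmd13, which overlaps Sirt3, was at 24.5, 37.4 and 26.9 CPM, and at 44.0 against 16.4 CPM. The ratios of these 4 genes lay between 1.42 and 1.76. Psmd12 was at 306, 378 and 428 CPM, and at 683 against 264 CPM. Psmd11 was at 174, 191 and 167 CPM, and at 265 against 105 CPM. Psmd6 was at 142, 141 and 153 CPM, and at 221 against 107 CPM. Psmd6 had the smallest ratio of the lid, 1.04.

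**Figure D2:**
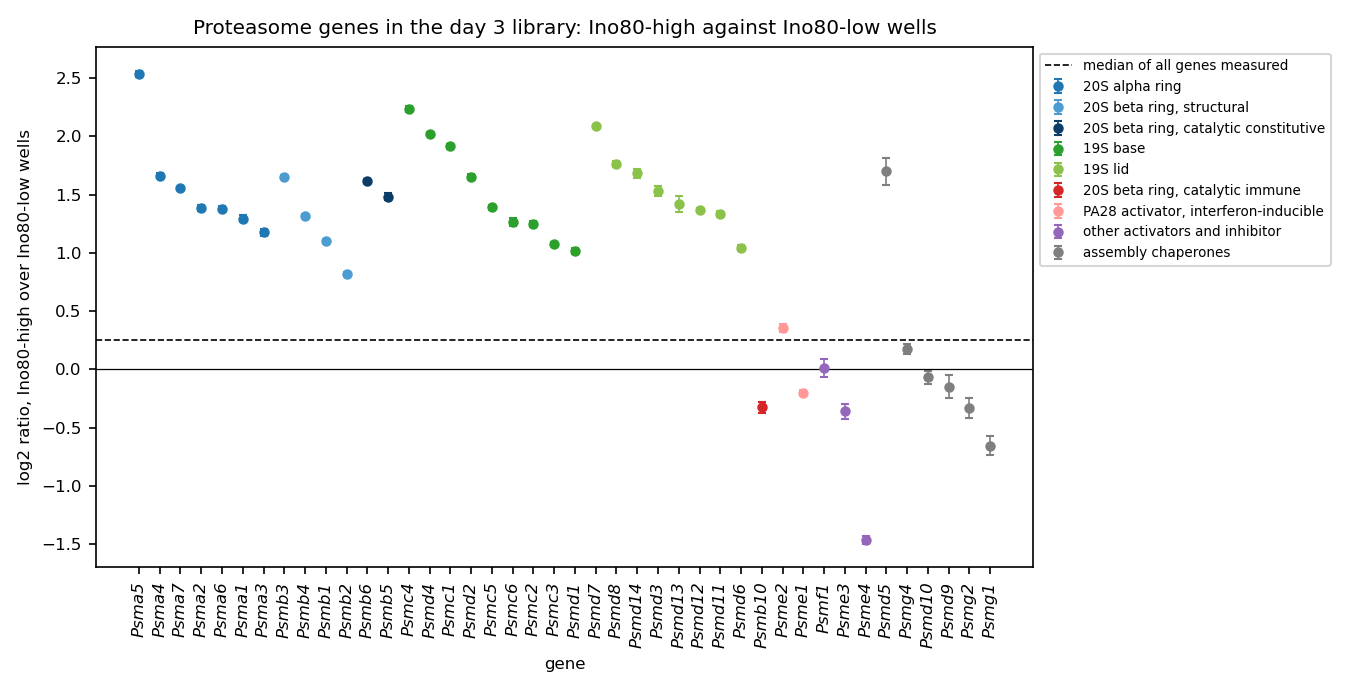
Log2 ratio of Ino80-high over Ino80-low wells of the day 3 library (y axis) for each measured proteasome gene (x axis), coloured by role, with exact 95% intervals for counting error. The dashed line is the median of all genes measured, 0.26. The constitutive genes lie between 0.82 and 2.54, and Psme4 lies at -1.46.

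The 3 measured immune subunits did not share the difference. Psmb10 (chromosome 8, 105935735 to 105938444) was at 69.4, 55.3 and 53.0 CPM on days 1, 2 and 3, and at 46.5 CPM in Ino80-high and 58.3 CPM in Ino80-low wells, a log2 ratio of -0.33 (-0.37 to -0.28). Psme1 was at 188, 159 and 183 CPM, and at 168 against 194 CPM, a log2 ratio of -0.20. Psme2 was at 122, 132 and 108 CPM, and at 124 against 96.8 CPM, a log2 ratio of 0.36. Of these 3 measured immune genes, 0 were 1.5-fold apart in either direction, where 37.5% of all genes were higher and 20.2% lower by that much. Their median was -0.20, and it lay between -0.80 and 0.14 under the alternatives, so its sign is not settled. Psmb8 (chromosome 17, 34197721 to 34201454) was at 9.39, 12.4 and 8.47 CPM, and at 11.2 against 7.07 CPM, a log2 ratio of 0.66 (0.55 to 0.78). Psmb9 (chromosome 17, 34181987 to 34187764), which overlaps Tap1, was at 1.42, 2.41 and 3.98 CPM, and at 4.17 against 3.99 CPM. Both were too low in compartment wells to be measured on day 3. On day 2, 1 well held 30.6% of the Psmb8 counts and 1 well held 47.3% of the Psmb9 counts. The 5 genes together stood at 354 CPM in Ino80-high and 360 CPM in Ino80-low wells, most of it from Psme1 and Psme2.

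Activators and assembly factors were mixed. Psme4, which encodes the activator PA200, was at 142, 194 and 167 CPM on the 3 days, and at 79.5 CPM in Ino80-high and 219 CPM in Ino80-low wells. Its log2 ratio of -1.46 (-1.50 to -1.43) was the lowest of the measured subunit genes. The quartile ranges per well, 0 to 102 CPM and 44.3 to 320 CPM, overlapped. Psme3 and the inhibitor gene Psmf1 had ratios of -0.36 and 0.01. Of 7 assembly chaperone genes 6 were measured, with a median of -0.11. Psmd5 was at 14.3, 12.6 and 9.27 CPM by day, and at 16.3 against 5.03 CPM, a log2 ratio of 1.70, but 1 well held 27.4% of its counts in Ino80-low wells. Psmg1 was at 16.9, 15.9 and 18.7 CPM, and at 14.1 against 22.2 CPM, a log2 ratio of -0.66, which became 2.10 where the mitochondrial share was 25% to 35%. Psmd9 was at 14.997, 22.9 and 12.8 CPM, and at 12.1 against 13.4 CPM. Psmg2, Psmg4 and Psmd10 had ratios from -0.33 to 0.18. The genes Psmg3 and Psme2b stayed at 6 CPM or less, and the tissue-restricted Psma8 and Psmb11 at 1.80 CPM or less.

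Single wells showed the same separation of the constitutive sum. Per well, it ran from 7724 to 24246 CPM with a median of 16093 in the 399 Ino80-high wells, and from 2337 to 19167 CPM with a median of 5519 in the 444 Ino80-low wells. All 399 Ino80-high wells were above the 90th percentile of Ino80-low wells, 7383 CPM, and 1 of 444 Ino80-low wells was above the Ino80-high median. Of the 46 wells between the limits, 33 were at or under that percentile and 13 were above the lowest Ino80-high well. How far other summed gene sets separate Ino80-high from Ino80-low wells was not computed, so this separation has no background. The immune sum had well medians of 260 and 275 CPM in high and low wells, with overlapping quartile ranges. The relation of the 20S and 19S sums across wells, which share library and depth, had a Spearman's rho of 0.07 on day 1, 0.03 on day 2, 0.20 in Ino80-high and -0.01 in Ino80-low wells. In the 46 wells between the limits rho was 0.73, and over all 889 day 3 wells it was 0.75.

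**Figure D3:**
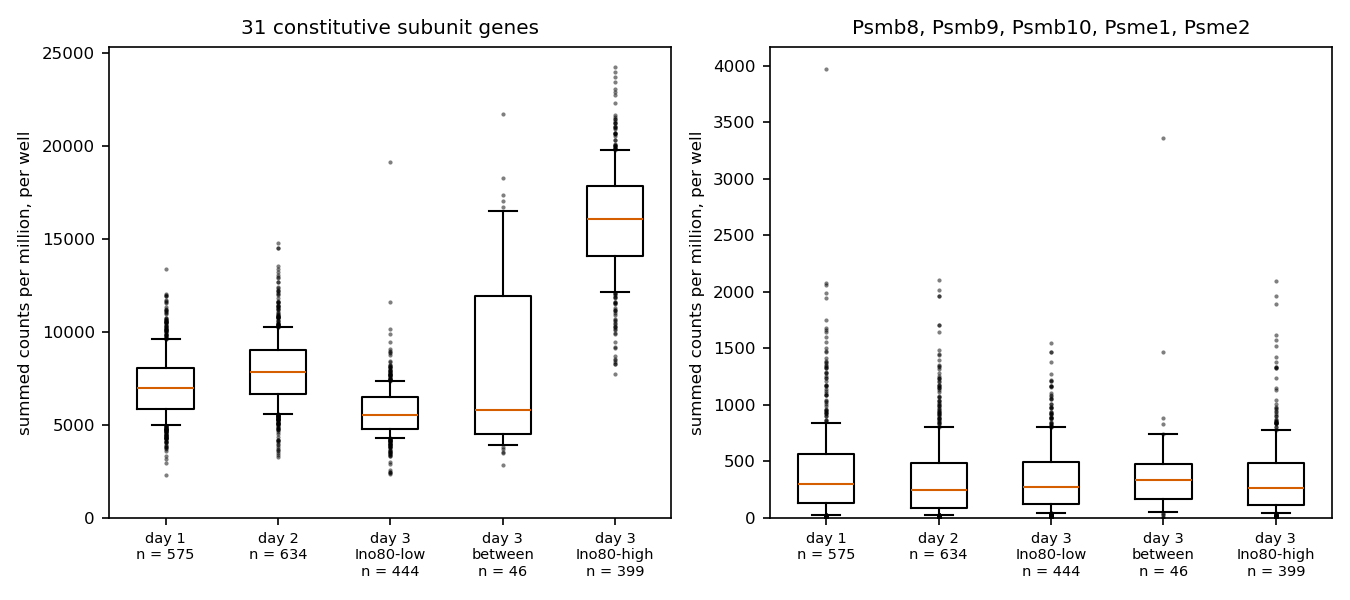
Summed CPM per compartment well of the 31 constitutive genes (left) and the 5 immune genes (right) by group of wells (x axis). Boxes give quartiles and median, whiskers the 10th and 90th percentiles, and points the wells beyond. The constitutive median is 16093 CPM in Ino80-high and 5519 CPM in Ino80-low wells, whereas the immune medians are 260 and 275 CPM.

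Wells of days 1 and 2 above the same Ino80 limit had lower sums than those of day 3. Ino80 was at 1000 CPM or more in 517 of 575 day 1 wells and 618 of 634 day 2 wells. Their constitutive sums had medians of 6978 and 7806 CPM, with quartile ranges of 5865 to 8037 and 6629 to 8985 CPM, all below the lower quartile of 14114 CPM in Ino80-high wells of day 3. Within the Ino80-high wells of day 3, the constitutive sum had a Spearman's rho of -0.14 with Ino80.

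**Figure D4:**
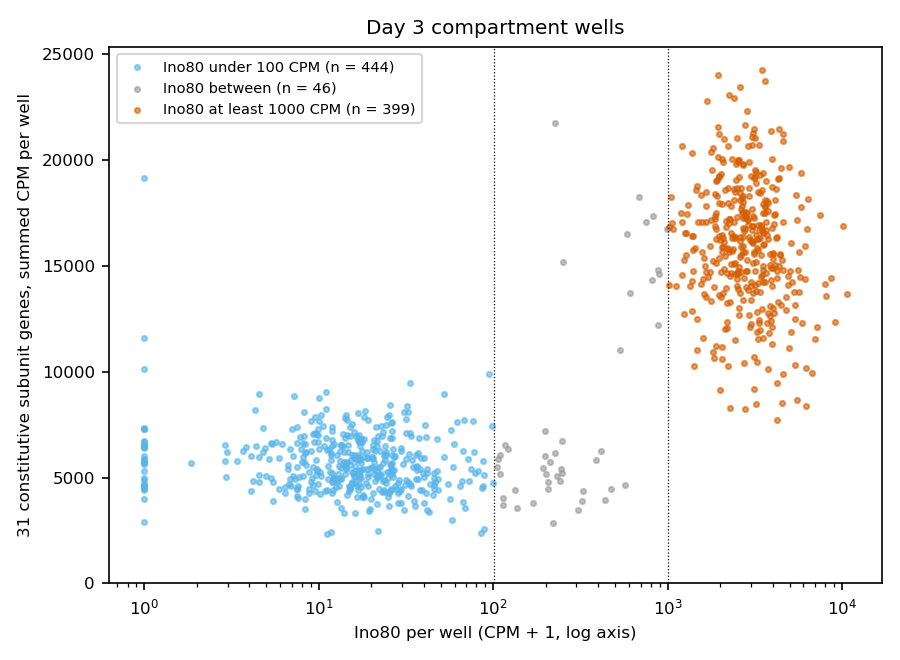
Constitutive sum (y axis, CPM per well) against Ino80 (x axis, CPM plus 1, log axis) in the 889 day 3 compartment wells. Dotted lines mark the limits of 100 and 1000 CPM. The 444 Ino80-low wells and the 399 Ino80-high wells form separate clouds, and the 46 wells between them fall in both.

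Other measures moved with the same split. The 12 ventricular cardiomyocyte markers summed to 78721 CPM in Ino80-high and 141898 CPM in Ino80-low wells. The 9 atrial cardiomyocyte markers summed to 2528 against 1159 CPM, with Sln the highest in both and none at 0. Cluster 12, which held most Ino80-high wells, had 2 of these 9 markers at least 2-fold higher than other wells and stayed unnamed. The 10 endothelial markers summed to 1237 against 541 CPM, the 10 macrophage markers to 193 against 39.2 CPM, the 6 erythroid markers to 602 against 193 CPM and the 10 fibroblast markers to 289 against 202 CPM. None of the endothelial, macrophage or fibroblast markers was at 0 in either group, and 1 of the 6 erythroid markers was at 0 in Ino80-high wells. Median counts per well were 306900 and 436786, and median mitochondrial shares 19.6% and 22.3%. The part of these measures in the difference was not tested. In wells with 250000 to 450000 counts, 30 constitutive genes were at least 1.5-fold higher, with a median of 1.39. Of all genes there, 37.3% were, with a median of 0.22. Restricting the mitochondrial share to 25% to 35% gave 30 genes and a median of 1.35, beside 40.6% and 0.29 for all genes. With median-of-ratios size factors the constitutive values were 29 and 1.15. Those factors move the median of all genes from 0.26 to 0, and 28.3% of all genes were at least 1.5-fold higher. Constitutive genes in each class of exon length had medians between 1.18 and 1.66, and all genes between 0.17 and 0.30.

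Wells named for other cell types showed the difference too. In macrophage-like wells of day 3, 42 Ino80-high and 29 Ino80-low, 29 of 30 constitutive genes were at least 1.5-fold higher (45% of all genes). Their median was 1.24, against 0.42 over all genes. In fibroblast-like wells, 31 and 39, the count was 26 of 30 (47.1% of all genes). The constitutive median there was 1.33, against 0.46 over all genes. Psme4 had ratios of -1.22 and -1.50. In compartment wells Myh6, the cardiomyocyte myosin, was at 4637 CPM in Ino80-high and 16175 CPM in Ino80-low wells. It was at 4303 against 14538 CPM in the macrophage-like and 2810 against 15222 CPM in the fibroblast-like wells. Cardiomyocyte RNA was thus present in both classes. Its part in these ratios was not tested.

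Between days 1 and 2, the constitutive genes differed less. The median log2 ratio of day 2 over day 1 was 0.35, against 0.14 over all 6441 genes measured, and 25 of 30 genes were higher. Of all genes measured, 36.0% lay below Psmc3, which was at -0.01, so most of all genes were higher as well. Psma5, Psmd3, Psmd13 and Psmd14 were at least 1.5-fold higher, 4 of 30 where 16.9% of all genes were. A share of 4 in 30 is near that background. The 4 measured immune genes had a median of -0.06. From day 1 to day 2, the 9 atrial markers went from 6869 to 209 CPM, the 6 erythroid markers from 36.3 to 385 CPM and the 7 B and plasma cell markers from 2.05 to 434 CPM, of which Igkc made up 413 CPM. Their part in the comparison was not tested. The count of 4 ranged from 1 to 10 across the alternatives, the lowest with size factors and the highest under a clustering that left 71 day 1 wells. Of all genes, 11.1% and 23.5% were at least 1.5-fold higher under those 2 settings.

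For the day 3 mixture against day 1, the constitutive median was 0.45 against -0.11 over all 6159 genes measured. Of 30 constitutive genes 29 were higher, Psmd11 being the exception at -0.06. Of all genes measured, 57.8% lay below the assembly chaperone gene Psmd10, which was at -0.02. At least 1.5-fold higher were 11 of 30, where 11.9% of all genes were. They were Psma1, Psma2, Psma5, Psmb2, Psmb3, Psmb5, Psmb6, Psmc4, Psmd3, Psmd8 and Psmd14. The mixture joins the well groups above, with sums of 16142 and 5618 CPM on either side of the day 1 sum of 7040 CPM. In Ino80-low wells 25 of 30 constitutive genes were lower than on day 1. The share of all genes lower in that comparison was not computed, so this count has no background. The 12 ventricular markers summed to 119002 CPM on day 1 and 141898 CPM in Ino80-low wells, and their part was not tested. Mitochondrial shares had medians of 40.7% on day 1 and 21.3% on day 3. Among 84 day 1 and 137 day 3 wells with a mitochondrial share of 25% to 35%, the median was 0.14 and the count 2, where 26.7% of all genes were, and Psmb6 turned to -0.26. With mitochondrially encoded genes in the total, the median was 0.82 and the count 23, beside an all-gene median of 0.28 and 27.7% of all genes at least 1.5-fold higher. Under the clustering that left 71 day 1 wells the count was 18, where 16.1% of all genes were. The 3 measured immune genes had a median of -0.17, which became 0.20 with mitochondrially encoded genes in the total.

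The immune catalytic genes differed by class of well. Psmb8 was at 94.98, 50.5 and 43.5 CPM in macrophage-like wells on days 1, 2 and 3, against 9.39, 12.4 and 8.47 CPM in compartment wells. It had a count in 39.8%, 42.7% and 46.3% of macrophage-like and 17.6%, 17.7% and 16.3% of compartment wells. Thinned to 30000 counts per well, which left out 2 macrophage-like and 8 compartment wells on day 1, the day 1 shares were 31.3% and 7.23%. Median depths on day 1 were 309544 and 349782 counts. Psmb9 was at 17.4 against 1.42 CPM on day 1 and at 6.86 against 3.98 CPM on day 3, a smaller gap. Psmb10 was at 98.9 against 69.4 CPM on day 1 and at 59.0 against 53.0 CPM on day 3. On day 1 it was highest in the 31 endocardial-like wells among the classes tabulated for that day, at 142 CPM. Higher levels of Psmb8 and Psmb9 were not particular to macrophage-like wells. On day 1 Psmb8 was at 57.9, 29.2 and 27.5 CPM in endocardial-like, endothelial-like and fibroblast-like wells. In fibroblast-like wells it was at 11.9 and 8.50 CPM on days 2 and 3, near the compartment. Psmb9 was at 11.3 CPM in endothelial-like and 8.91 CPM in macrophage-like wells on day 2. On day 3 it was at 6.45 CPM in fibroblast-like wells. Every nuclear gene could enter the clustering that made the classes, so these levels are a description without a test.

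**Figure D5:**
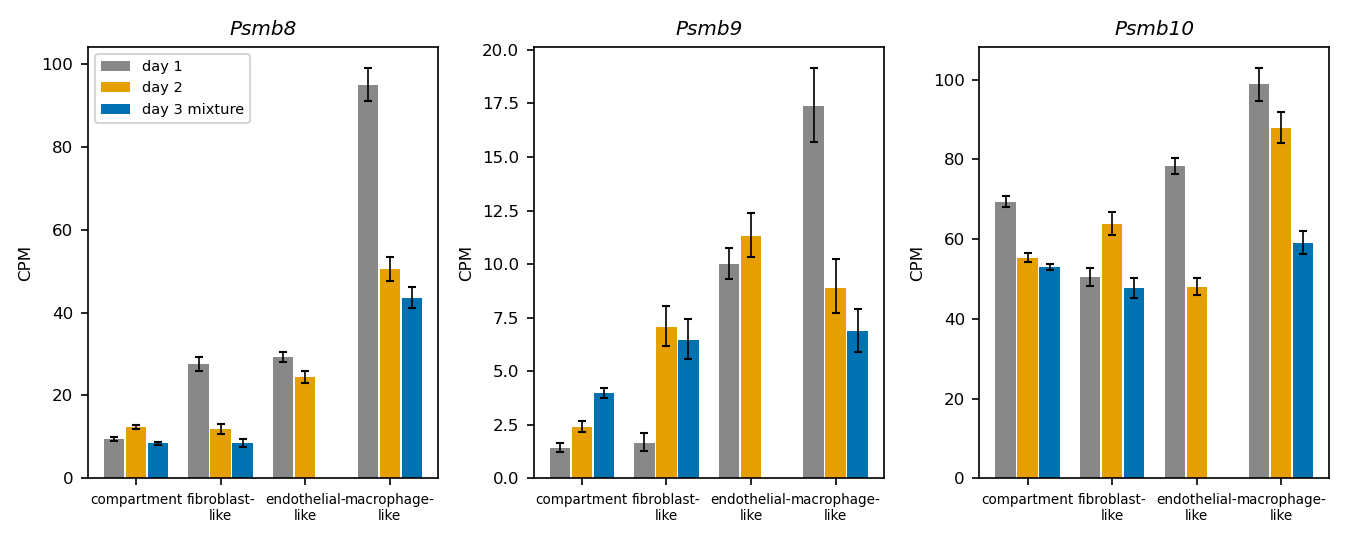
CPM of Psmb8, Psmb9 and Psmb10 (y axes, separate scales) by class of well and library, with exact 95% intervals for counting error; endothelial-like wells of day 3 are not drawn because there were 4. Psmb8 in macrophage-like wells is at 94.98, 50.5 and 43.5 CPM, above the compartment on each day.

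Genes that act with the proteasome were mixed between Ino80-high and Ino80-low wells. Their counts stand beside 37.5% of all genes that were higher by 1.5-fold or more and 20.2% that were lower by as much. Nfe2l1 was at 212, 287 and 165 CPM on the 3 days, and at 175 against 157 CPM in high and low wells, a log2 ratio of 0.16. Nfe2l2, the regulator of antioxidant genes, was at 49.8, 149 and 87.5 CPM, and at 146 against 50.2 CPM. Of 6 measured regulators of proteasome gene transcription, 3 were at least 1.5-fold higher, Nfe2l2 at 1.54, Ngly1 at 1.10 and the unfoldase Vcp at 0.97, a share near that of all genes. Of 7 measured subunits and assembly factors outside the symbol pattern, 2 were at least 1.5-fold higher, below the share of all genes, the ubiquitin receptor gene Adrm1 at 2.03 and the maturation factor gene Pomp at 1.15, and Akirin2, a nuclear import factor for proteasomes, was at -0.63. Among 10 ubiquitin and loading genes, Ubb at 1.68, Rps27a at 1.23 and Ube2k at 0.69 were at least 1.5-fold higher, again below the share of all genes. Among the ubiquitin shuttle genes reported here, Ubqln2 at 1.10 and Rad23b at 0.87 were at least 1.5-fold higher. Muscle ubiquitin ligase genes differed both ways, with Fbxo30 at 2.33 and Mdm2 at 0.71, and with Asb2 at -2.46, Trim55 at -0.92 and Trim63 at -0.59. Of 8 class I presentation genes, B2m at 1.39, H2-K1 at 1.497 and H2-D1 at 1.09 were at least 1.5-fold higher and Erap1 at -0.76 lower by as much, 3 of 8 being the share of all genes. Of 14 interferon response genes 2 were measured, Ifi35 at 2.12 and Ifit3 at 0.62.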

How the data were processed

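Single-well RNA-seq of 3 libraries was deposited as raw read counts per gene and well; per the submitters' processing notes the authors used cutadapt, STAR and featureCounts with mm10, with versions and strand setting not given in the sources used here. Well names were read from the deposited barcodes. Wells with at least 1000 counts and 300 genes were kept. Gene symbols came from GENCODE M21 (55141 of 55401 mouse identifiers matched). Compartment wells had medians of 349782, 355636 and 361709 counts.

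Kept wells were clustered with scanpy 1.11.5 on nuclear-encoded genes (2000 variable genes scaled to at most 10, 30 components, 15 neighbours, Leiden resolution 0.5) without removing doublets. Of 6 clusterings tried, this one was taken after their clusters were seen, because its compartment was closest in size to that of an earlier analysis of these data; the effect of the other 5 is given below. Clusters were named from marker genes with at least 3 markers 2-fold higher; those naming limits were also set with the data in view. By rule, unnamed, ventricular and atrial clusters made the compartment. In the clustering taken no cluster was named ventricular. Unnamed wells numbered 553, 634 and 885 on days 1, 2 and 3, and atrial wells 22, 0 and 4.

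Counts were summed over wells and scaled to 1000000 nuclear-encoded counts. With 1 library per group there was no test. The ratio code was tested on simulated data over several seeds. Every subunit gene was accounted for; values were written out for catalytic and immune genes and for members at least 1.5-fold apart at 10 CPM or more. The members, lists and well limits were chosen with earlier results of these data known. A gene of the ubiquitin shuttle list is not reported here. The alternatives comprised 9 planned and 8 added after seeing the data.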

Additional observations from a re-analysis of the deposited data

How the results depend on the processing

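The Ino80-high against Ino80-low difference of the constitutive genes kept its direction under every alternative run, with 29 to 31 genes at least 1.5-fold and 23 to 29 at least 2-fold higher. Of all genes, 28.3% to 49.9% were at least 1.5-fold and 16.7% to 36.7% at least 2-fold higher, the lowest with size factors and the highest with no minimum level. Of 833 single-gene values at least 1.5-fold apart in the reported value, 829 kept their direction under the alternatives and 769 stayed 1.5-fold apart. The exceptions were -0.95 for Psmd9 (day 2 over day 1), -0.26 for Psmb6 (day 3 over day 1) and 2.10 for Psmg1 (Ino80-high over Ino80-low) in wells with 25% to 35% mitochondrial counts, and 1.36 for Psmd5 (day 3 over day 1) under clustering of all genes, unscaled; the cause was not tested. Genes under 10 CPM in the reported comparison (among them Psmb7 and Psmb9) were left out of these counts by a rule set after their values were seen. That clustering, the first tried, left 71 day 1 wells in the compartment; the other 4 not taken left between 514 and 962. No paired analysis was possible because each group has 1 library. Psmb7, Psmb8 and Psmb9 lie near or under 10 CPM, and the reason was not tested. The constitutive median of day 2 over day 1 was 0.36 with mitochondrially encoded genes in the total, 0.22 with median-of-ratios size factors, 0.31 in wells with at least 5000 counts and 1000 genes and 0.23 over all kept wells. It was 0.30 as means of single wells, 0.32 in wells with 25% to 35% mitochondrial counts, 0.32 with 1000 variable genes and 0.26 in wells with 250000 to 450000 counts. Further values were 0.24 without shared barcodes, 0.33 without atrial-like wells, 0.48 under clustering of all genes, unscaled and 0.28 under clustering of all genes, unscaled, to convergence. The rest were 0.24 under clustering of nuclear genes, unscaled, 0.24 under clustering of nuclear genes, unscaled, to convergence and 0.29 under clustering of all genes, scaled. The immune median of day 2 over day 1 was -0.23 with mitochondrially encoded genes in the total, -0.20 with median-of-ratios size factors, 0.12 with no minimum level and -0.041 in wells with at least 5000 counts and 1000 genes. It was -0.28 over all kept wells, -0.18 as means of single wells, 0.39 in wells with 25% to 35% mitochondrial counts and -0.27 in wells with 250000 to 450000 counts. Further values were -0.18 without shared barcodes, 0.22 under clustering of all genes, unscaled, -0.00793 under clustering of all genes, unscaled, to convergence and -0.16 under clustering of nuclear genes, unscaled. The rest were -0.16 under clustering of nuclear genes, unscaled, to convergence. Counts at least 1.5-fold higher are given with the share of all genes in brackets. For day 2 over day 1 the count was 1 (11.1%) with median-of-ratios size factors and 2 (14.1%) as means of single wells. It was 10 (23.5%) under clustering of all genes, unscaled and 2 (17.7%) under clustering of all genes, unscaled, to convergence. It was 2 (18.9%) under clustering of all genes, scaled. The constitutive median of day 3 over day 1 was 0.82 with mitochondrially encoded genes in the total, 0.56 with median-of-ratios size factors, 0.44 with no minimum level and 0.43 over all kept wells. It was 0.56 as means of single wells, 0.14 in wells with 25% to 35% mitochondrial counts, 0.44 with 1000 variable genes and 0.52 in wells with 250000 to 450000 counts. Further values were 0.48 without shared barcodes, 0.43 without atrial-like wells, 0.67 under clustering of all genes, unscaled and 0.44 under clustering of all genes, unscaled, to convergence. The rest were 0.40 under clustering of nuclear genes, unscaled, 0.40 under clustering of nuclear genes, unscaled, to convergence and 0.44 under clustering of all genes, scaled. The immune median of day 3 over day 1 was 0.20 with mitochondrially encoded genes in the total, -0.058 with median-of-ratios size factors, -0.15 with no minimum level and -0.20 in wells with at least 5000 counts and 1000 genes. It was -0.40 over all kept wells, -0.32 as means of single wells, -0.20 in wells with 25% to 35% mitochondrial counts and -0.19 in wells with 250000 to 450000 counts. Further values were -0.20 without shared barcodes, -0.19 without atrial-like wells, -0.034 under clustering of all genes, unscaled and -0.42 under clustering of nuclear genes, unscaled. The rest were -0.42 under clustering of nuclear genes, unscaled, to convergence and -0.13 under clustering of all genes, scaled. For day 3 over day 1 the count at least 1.5-fold higher was 23 (27.7% of all genes) with mitochondrially encoded genes in the total. It was 2 (26.7%) in wells with 25% to 35% mitochondrial counts and 18 (16.1%) under clustering of all genes, unscaled. The constitutive median of Ino80-high over Ino80-low was 1.43 with mitochondrially encoded genes in the total, 1.15 with median-of-ratios size factors, 1.39 with no minimum level and 1.39 in wells with at least 5000 counts and 1000 genes. It was 1.40 over all kept wells, 1.34 as means of single wells, 1.35 in wells with 25% to 35% mitochondrial counts and 1.39 with Ino80 limits of 2000 and 50 CPM. Further values were 1.39 in wells with 250000 to 450000 counts, 1.42 without shared barcodes, 1.41 without atrial-like wells and 1.40 under clustering of all genes, unscaled. The rest were 1.40 under clustering of all genes, unscaled, to convergence, 1.40 under clustering of nuclear genes, unscaled and 1.40 under clustering of all genes, scaled. The immune median of Ino80-high over Ino80-low was -0.18 with mitochondrially encoded genes in the total, -0.46 with median-of-ratios size factors, 0.062 with no minimum level and 0.11 over all kept wells. It was -0.80 in wells with 25% to 35% mitochondrial counts, -0.18 with 1000 variable genes, -0.15 with Ino80 limits of 2000 and 50 CPM and -0.046 in wells with 250000 to 450000 counts. Further values were 0.14 without shared barcodes, 0.065 under clustering of all genes, unscaled, 0.060 under clustering of all genes, unscaled, to convergence and -0.23 under clustering of nuclear genes, unscaled. The rest were -0.23 under clustering of nuclear genes, unscaled, to convergence and -0.18 under clustering of all genes, scaled.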

Other observations

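Days 1 and 2 differed in the other direction by Ino80 within the library. In the quartile of day 1 wells with the lowest Ino80, the constitutive subunits summed to 7113 CPM, and in the highest quartile to 6479 CPM, with median mitochondrial shares of 38.3% and 44.8%. On day 2 the sums were 8660 and 7053 CPM, with median mitochondrial shares of 25.3% and 49.5%. The part of the mitochondrial share in these differences was not tested.

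Of 4 proteasome pseudogenes, Psmb6-ps2 was at 0.61, 0.51 and 0.79 CPM on days 1, 2 and 3, and the others at 0.04 CPM or less. Psmc3ip was at 3.61, 5.33 and 4.11 CPM.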
